A study of Mus musculus with 6 samples.

Results

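The 9 genes described here build the neuromuscular synapse or hold its acetylcholinesterase: Agrn, Lrp4, Musk, Dok7, Rapsn, Ache, Colq, Prima1 and Etv5. They were found on the arrays through the RefSeq accession that the files give for each probe, which matched all 9 and gave 12 probes. Agrn, Ache and Colq had 2 probes each and the other genes had 1 each. All 9 were among the 20900 genes tested. Of the 20900, 13843 carried a symbol. The rest are counted under their array identifier, and ranks and shares over all genes include them. The 9 genes were chosen from the same difference between aged and young mice that is described here, with earlier results of these arrays known. Their differences are therefore given as a description and no support is drawn from a test of them.

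Expression was measured in the gastrocnemius, a calf muscle, of 3 young male mice (13 weeks old) and 3 aged male mice (26 months old). All 6 were C57BL/6J mice, untreated as far as the labels say, each hybridised to a single-colour Agilent array of its own. The aged mice served as a model of sarcopenia, the loss of muscle in old age, and the comparison asked which genes differ in aged muscle. Whole muscle was used, so RNA of Schwann cells and of the few nuclei under each synapse was measured together with that of the rest of the fibre. Any RNA in nerve terminals was included and cannot be told apart from it. Fewer cells of a type cannot be told apart from less RNA per cell.

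At the neuromuscular synapse, the motor nerve secretes agrin into the basal lamina. Agrin binds Lrp4 on the muscle fibre, Lrp4 activates the receptor kinase MuSK with the help of the adaptor Dok7, and rapsyn then clusters acetylcholine receptors under the nerve ending. Acetylcholinesterase ends the signal by splitting acetylcholine, and it is tethered either to the basal lamina by the collagen tail ColQ or to cell membranes by the small membrane protein PRiMA, the product of Prima1. Etv5 is an ETS-family transcription factor of the nuclei under the synapse.

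Among the 9 genes, the lowest value relative to young muscle was that of Prima1 and the highest was that of Musk. The sequences before the transcription start of these genes are shown because both hold the same hexamer, CAGCTG, an E-box of the kind bound by myogenic factors. They are the 250 bases upstream of the start in RefSeq (GRCm38.p6), for Musk at chr4:58285712-58285961 on the plus strand and for Prima1 at chr12:103242147-103242396 on the minus strand, 5′ to 3′ along the gene, with CAGCTG in capitals. Each gene as annotated begins further upstream than the start used, so the bases shown may overlap another transcript.
Musk: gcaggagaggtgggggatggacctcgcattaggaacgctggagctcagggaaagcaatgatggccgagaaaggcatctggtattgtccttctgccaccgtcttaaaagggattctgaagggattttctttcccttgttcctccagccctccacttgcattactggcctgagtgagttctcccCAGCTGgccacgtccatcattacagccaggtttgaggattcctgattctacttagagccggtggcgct
Prima1: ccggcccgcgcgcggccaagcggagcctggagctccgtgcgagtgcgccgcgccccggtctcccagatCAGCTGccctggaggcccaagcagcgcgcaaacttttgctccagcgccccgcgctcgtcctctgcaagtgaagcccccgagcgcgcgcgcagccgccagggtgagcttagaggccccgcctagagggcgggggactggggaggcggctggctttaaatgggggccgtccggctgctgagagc
The hexamer began 68 bases before the start of Musk and 182 bases before that of Prima1.

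Exact matches were sought on both strands in windows from 250 bases before to 50 bases after each start. RefSeq windows were found for Agrn, Musk, Dok7, Ache, Prima1 and Etv5, 9 windows in all, and none was listed for Lrp4, Rapsn and Colq. CAGCTG was present in 3 of the 9 windows, those of Musk and Prima1 and 1 of Etv5, where it began 207 bases before the start, and in 16.3% of all 32851 windows of the table. The general E-box CANNTG, which includes CAGCTG, was found in 6 of the 9 windows, with 1 or more for each of the 6 genes, and in 72.3% of all windows. The N-box CCGGAAG, a motif for ETS factors at synaptic genes, was in 0 of the 9 windows and in 8.86% of all. The MEF2 site, CTA and TAG with any 4 bases between them, was also in 0 of the 9 and in 3.69% of all. These matches describe letters in a window and do not show binding.

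Levels are given as log2 signal minus the 75th percentile of the array, so that 0 is the 75th percentile and 1 unit is a doubling, and a difference is always aged minus young. Levels of different genes are not set against each other, because probes differ in brightness. The mean was lower in aged mice for 6 of the 9 genes and higher for 3. The median difference of the 9 genes was -0.30, beside -0.06 over all 20900 genes. The groups did not overlap for 4 genes, Agrn, Musk, Colq and Prima1, while 21.8% of all genes tested had groups that did not overlap in either direction. By limma with Benjamini-Hochberg adjustment (threshold 0.05) 1 of the 9, Prima1, passed, where 0.254% of all genes passed (41 higher and 12 lower). Since this difference chose the genes, nothing is read from these counts.

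**Figure D1:**
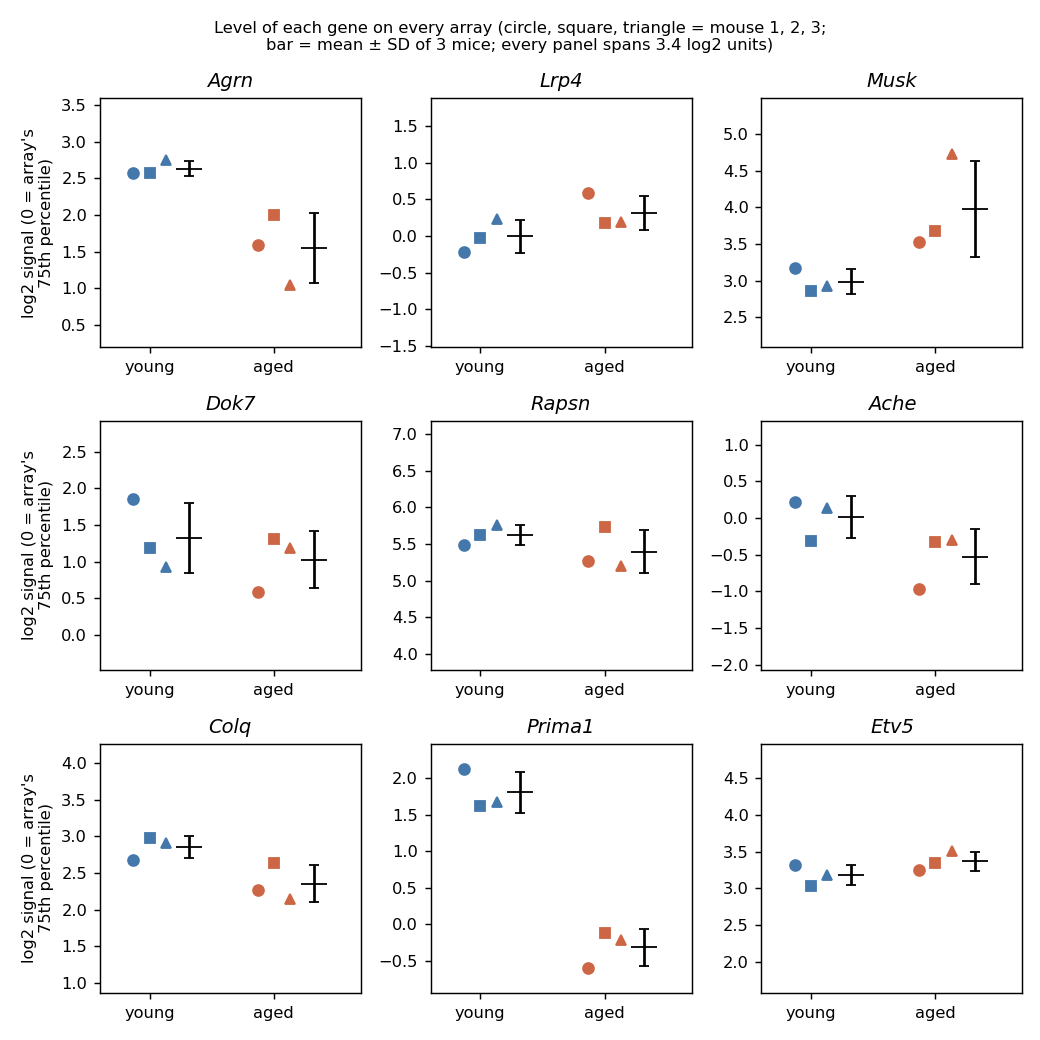
Level of each of the 9 genes on every array, as log2 signal relative to the 75th percentile of the array (vertical axis), for young (blue) and aged (orange) mice, with circle, square and triangle for mouse 1, 2 and 3 and the bar for mean ± SD (n = 3). Aged and young points are apart for Agrn, Musk, Colq and Prima1, with the widest gap, 1.73 units, for Prima1.

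Agrn, the gene of the ligand agrin, had a lower level in all 3 aged mice. The levels were 2.57, 2.58 and 2.75 in young mice 1, 2 and 3, and 1.60, 2.0 and 1.05 in aged mice 1, 2 and 3. The young mice lay close together and the aged mice were spread over 0.95 units, with a gap of 0.57 between the groups. The mean was 2.63 ± 0.10 (SD, n = 3) in young and 1.55 ± 0.48 (SD, n = 3) in aged mice, a difference of -1.08 (SE 0.26) or 0.471-fold. This was the 400th lowest difference of the 20900 genes. A second probe of Agrn was not well above background on any of the 6 arrays and gave no level.

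Lrp4, the receptor to which agrin binds, had overlapping groups. Its levels were -0.22, -0.03 and 0.23 in the young mice and 0.59, 0.18 and 0.19 in the aged mice. Aged mouse 1 was above every young mouse, and the other aged mice were within the young range. The difference was 0.32 (SE 0.20), or 1.25-fold, and without aged mouse 1 it was 0.19. With normexp background correction it was 0.09.

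Musk, the receptor kinase at the centre of the pathway, had a higher level in all 3 aged mice. The levels were 3.18, 2.86 and 2.93 in the young and 3.52, 3.68 and 4.73 in the aged mice. Aged mouse 3 stood above the others: its signal was 26.5 times the 75th percentile of its array, while aged mice 1 and 2 had 11.5 and 12.8 times and the young mice 7.25 to 9.05 times. The mean was 2.99 ± 0.17 (SD, n = 3) in young and 3.98 ± 0.65 (SD, n = 3) in aged mice, a difference of 0.99 (SE 0.33) or 1.99-fold, the 777th highest of all genes. The lowest aged mouse was 0.34 above the highest young mouse. Without aged mouse 3 the difference was 0.61.

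Downstream of MuSK, the adaptor Dok7 and the receptor-clustering protein gene Rapsn did not separate the groups. Dok7 had levels of 1.86, 1.19 and 0.93 in young and 0.58, 1.31 and 1.19 in aged mice, and the difference was -0.30 (SE 0.31) or 0.814-fold. The highest value was that of young mouse 1 and the lowest that of aged mouse 1, and without young mouse 1 the difference was -0.03. Rapsn had levels of 5.48, 5.62 and 5.76 in young and 5.26, 5.73 and 5.20 in aged mice. Aged mice 1 and 3 were below every young mouse and aged mouse 2 was within the young range, with a difference of -0.22 (SE 0.20) or 0.857-fold. It was -0.13 without aged mouse 3.

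Ache encodes acetylcholinesterase itself. On its brighter probe the levels were 0.22, -0.31 and 0.14 in young and -0.96, -0.33 and -0.30 in aged mice. The groups overlapped by 0.01 units, since aged mouse 3 was just above young mouse 2. The mean was 0.01 ± 0.28 (SD, n = 3) in young and -0.53 ± 0.38 (SD, n = 3) in aged mice, a difference of -0.54 (SE 0.25) or 0.687-fold, and without aged mouse 1 it was -0.33. The other Ache probe read -0.49, -0.73 and -0.46 in young and -1.35, -1.14 and -0.84 in aged mice. Its groups did not overlap and its difference was -0.55 (SE 0.21), nearly that of the first probe.

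Colq, the gene of the collagen tail that anchors the enzyme in the basal lamina, had a lower level in all 3 aged mice. The levels were 2.68, 2.98 and 2.90 in young and 2.27, 2.63 and 2.15 in aged mice. Aged mouse 2 was only 0.05 units below the lowest young mouse. The difference was -0.50 (SE 0.19), or 0.705-fold. A second Colq probe was dimmer, being well above background on 3 young arrays and 1 aged array. It read -3.63, -2.98 and -2.84 in young and -3.16, -4.20 and -4.70 in aged mice, with overlapping groups and a difference of -0.88 (SE 0.44).

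Prima1, the gene of the membrane anchor, had the largest difference of the 9 genes. The levels were 2.13, 1.62 and 1.66 in young and -0.59, -0.12 and -0.21 in aged mice. Every young mouse was above the 75th percentile of its array, at 3.07 to 4.37 times its signal, and every aged mouse was below it, at 0.663 to 0.923 times. The mean was 1.80 ± 0.28 (SD, n = 3) in young and -0.31 ± 0.25 (SD, n = 3) in aged mice, a difference of -2.11 (SE 0.22) or 0.232-fold, the 52nd lowest of the 20900 genes. Prima1 had only 1 probe, which was well above background on all 6 arrays. Leaving out any 1 mouse kept the difference between -2.21 and -1.95. All 3 genes of the enzyme and its anchors thus had lower means in aged mice, with log2 differences of -0.54 for Ache, -0.50 for Colq and -2.11 for Prima1. The Ache groups overlapped on its brighter probe, those of Colq were 0.05 units apart, and these genes were chosen from this difference.

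Etv5, the ETS factor, differed little. Its levels were 3.32, 3.04 and 3.19 in young and 3.25, 3.34 and 3.51 in aged mice. Aged mice 2 and 3 were above the young mice and aged mouse 1 was between young mice 3 and 1. The difference was 0.19 (SE 0.16) or 1.14-fold, and it was 0.11 without aged mouse 3.

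The aged mice did not deviate alike. Aged mouse 3 was the farthest from the young mean for 5 of the 9 genes, with the highest Musk and Etv5 levels and the lowest Agrn, Colq and Rapsn levels of the aged mice. Aged mouse 1 was the farthest for the other 4, with the lowest Prima1, Ache and Dok7 levels and the highest Lrp4 level. Aged mouse 2 was the farthest for 0 of the 9. The median of the 9 genes relative to the young mean was -0.59, -0.02 and -0.31 in aged mice 1, 2 and 3, and 0.13, -0.13 and 0.05 in young mice 1, 2 and 3. For Prima1 the aged mice were alike, at -2.40, -1.92 and -2.02 relative to the young mean. For Musk they were 0.54, 0.69 and 1.74, and for Agrn -1.04, -0.63 and -1.59.

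**Figure D2:**
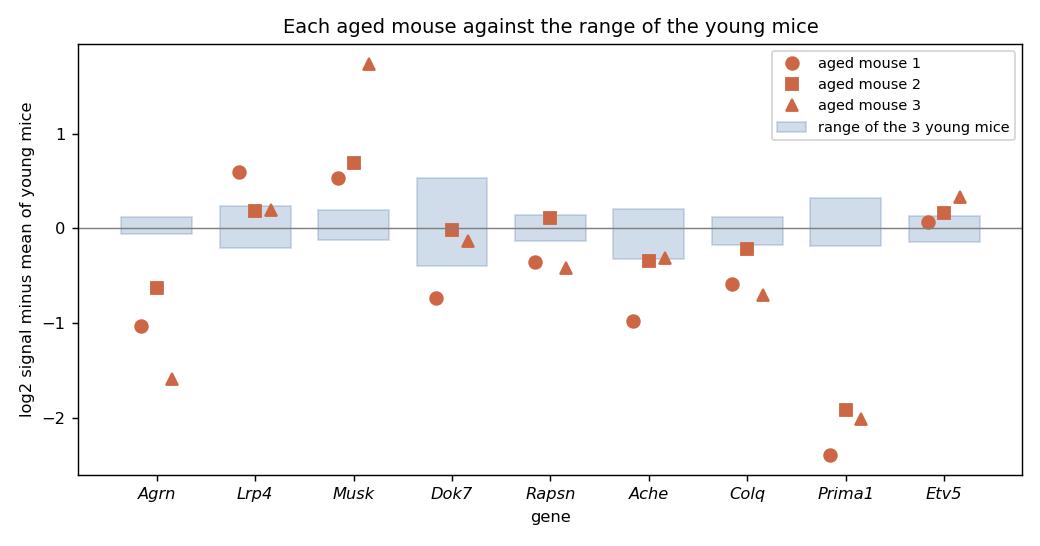
Log2 signal of each aged mouse minus the mean of the 3 young mice (vertical axis) for the 9 genes (horizontal axis), with the range of the young mice as a blue band. Aged mouse 3 (triangle) is the farthest from 0 for 5 genes and aged mouse 1 (circle) for 4, and all 3 aged mice lie outside the band for Agrn, Musk, Colq and Prima1.

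All 6 arrays lay on 1 slide and shared 1 scan, with the young mice and aged mouse 1 in the upper row and aged mice 2 and 3 in the lower row. With the row as a block the difference is that of aged mouse 1 from the young mice, which was -2.40 for Prima1, 0.54 for Musk, -1.04 for Agrn, -0.98 for Ache, -0.59 for Colq, -0.74 for Dok7, 0.59 for Lrp4, -0.36 for Rapsn and 0.07 for Etv5. The lower row held aged mice only and gives no value of its own. The 75th percentile signal was 210 to 299.9 in young and 271 to 311 in aged mice. In young mice 49.2% to 50.8% of probes were well above background, and in aged mice 48.7% to 53.8%. The array of aged mouse 1 had the highest share, 53.8%. Its negative-control mean was also the highest, 61.3, against 51.9 to 55.1 on the other arrays. No spot was saturated. The number of arrays limits the precision.

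**Figure D3:**
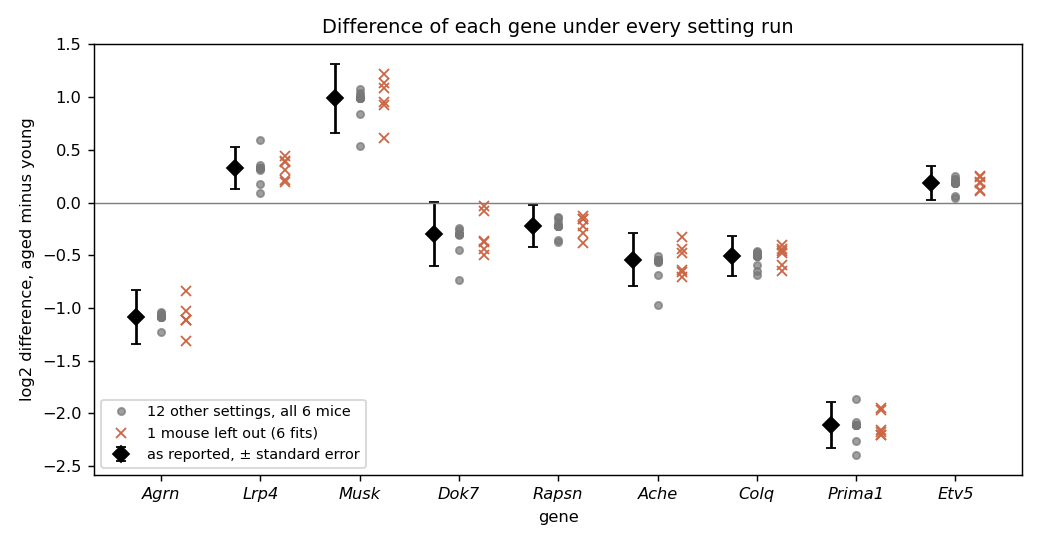
Log2 difference, aged minus young, of each of the 9 genes as reported (diamond, ± standard error), under 12 other settings with all mice (grey points) and with 1 mouse left out (crosses). Prima1 stays between -2.40 and -1.86 and no gene crosses 0 in the 12 of the 18 alternatives that change any of these differences.

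Other genes of the synapse were taken as lists, and none of their genes passed the threshold in the limma fit. An unadjusted limma p under 0.05 is counted beside them, which 14.4% of all genes tested had in either direction. The lists were chosen with earlier results of these arrays known, so their counts and p-values are a description. Of the 5 acetylcholine receptor subunits, 4 were well above background in both groups, and 3 of these had higher means in aged mice and an unadjusted p under 0.05. Their median difference was 1.45. With Chrng it was 1.75, and then 1.05 with normexp background correction and 1.01 with the slide row as a block. Chrna1 differed by 1.83 (SE 0.42, limma adjusted p = 0.152; 0.94 with the slide row as a block), Chrnb1 by 1.75 (SE 0.40, limma adjusted p = 0.153) and Chrnd by 1.14 (SE 0.25, limma adjusted p = 0.149). Chrng, the subunit of immature and denervated muscle, was not well above background on any young array and entered the fit only through the 3 aged arrays, so it is left out of these counts. On the deposited intensities it was at least 2.50-fold higher in aged mice. With normexp its difference was 0.33 in place of 1.78, so this bound depends on the background correction. Chrne, the adult subunit, differed by -0.25 (SE 0.30, limma adjusted p = 0.723).

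Of 17 genes that relay the MuSK signal to the cytoskeleton, 16 were tested (not Src), 6 with higher and 10 with lower means, and the median difference was -0.14. At an unadjusted p under 0.05, 1 of the 16 was higher and 3 were lower. Pak1, a kinase of the actin cytoskeleton, differed by 1.41 (SE 0.37, limma adjusted p = 0.192). Abl1, a tyrosine kinase that acts with MuSK, differed by -1.0 (SE 0.26, limma adjusted p = 0.186). The adaptor Crkl, which Dok7 recruits, differed by 0.78 (SE 0.40) and Sorbs2 by -0.75 (SE 0.27). With the slide row as a block the differences were 1.39 for Pak1, -0.50 for Abl1, 0.84 for Crkl and -0.35 for Sorbs2. With normexp Sorbs2 differed by -0.31.

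Of 8 neuregulin, ErbB and ETS genes, 5 were tested (not Nrg1, Erbb3 and Erbb4). Their median difference was -0.18 and 0 had an unadjusted p under 0.05 by limma. Etv4 and Etv1, relatives of Etv5, differed by -0.51 (SE 0.26) and -0.25 (SE 0.23), the receptor Erbb2 by 0.22 (SE 0.18) and the ETS factor Gabpa by -0.18 (SE 0.20). With the mean of all kept probes of a gene Gabpa differed by 0.21 and the list median was 0.04. None of the 5 separated the groups.

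Of 12 genes of the synaptic basal lamina and cytoskeleton, 11 were tested (not Col13a1), 5 with higher and 6 with lower means, with a median difference of -0.11 and an unadjusted p under 0.05 for 1 higher and 1 lower of the 11, near the share over all genes. The adhesion molecule gene Ncam1 differed by 0.98 (SE 0.30, limma adjusted p = 0.233), Dtna by 0.85 (SE 0.45), Sntb2 by -0.38 (SE 0.15) and Lamb2, the synaptic laminin chain, by -0.37 (SE 0.27). With the slide row as a block Lamb2 differed by 0.23 and the list median was 0.23. Ncam1 differed by 0.60 with the mean of all kept probes of a gene, 0.64 with normexp and 1.35 with the slide row as a block. Of 5 genes that make, carry or break down acetylcholine, Chat, Slc18a3 and Slc5a7 were not well above background often enough to be tested. The choline transporter gene Slc44a1 differed by 0.51 (SE 0.19) and Bche, whose enzyme also splits acetylcholine, by -0.72 (SE 0.28), and both had an unadjusted p under 0.05.

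**Figure D4:**
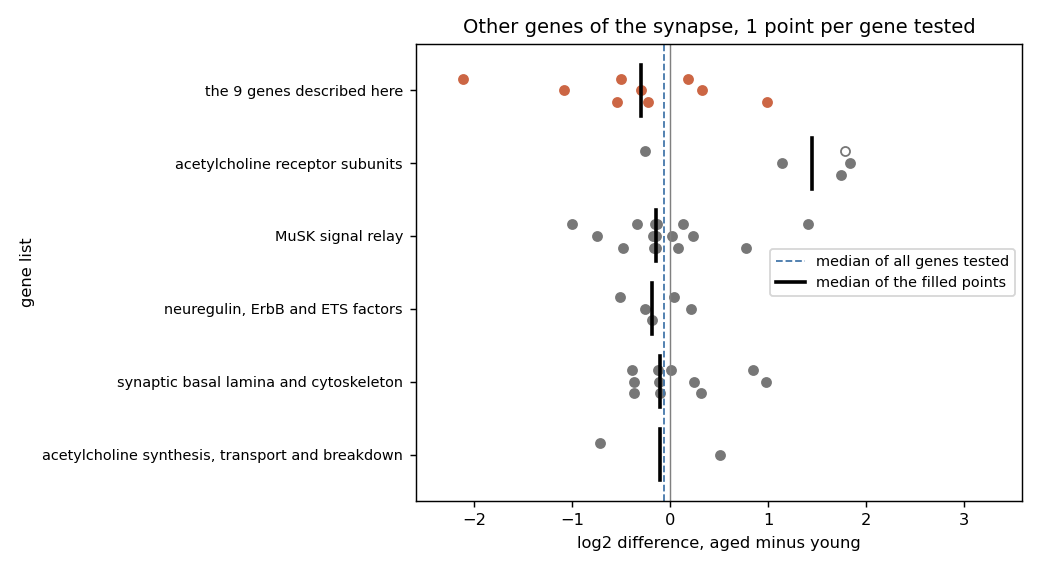
Log2 difference, aged minus young (horizontal axis), of the 9 genes (orange) and of the tested genes of 5 other synapse lists (grey), 1 point per gene, with list medians as black bars and the median of all genes, -0.06, as a dashed line. The open point is Chrng, which was not well above background in young mice and is left out of the median, 1.45 for the receptor subunits. The median lies between -0.30 and -0.10 for the 9 genes and the other lists.

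Marker genes of the cells in whole muscle were compared beside these values. All 6 muscle fibre markers were tested and well above background on all 6 arrays, with a median difference of -0.20. Of 10 Schwann cell markers 9 were tested, 2 with higher and 7 with lower means, and 1 (Prx, -1.29, limma adjusted p = 0.0428) passed the threshold; their median was -0.74, or -0.44 with normexp, and their summed level was 24.7 to 45.1 times the 75th percentile in young and 22.1 to 40.0 times in aged mice. Of 7 motor neuron markers 2 were tested, and Isl1, Mnx1, Nefl, Nefm and Nefh were not. The summed fibroblast markers were 358 to 398 in young and 144 to 325 in aged mice, the endothelial markers 30.6 to 34.4 and 20.8 to 29.4, the macrophage markers 18.8 to 20.9 and 20.8 to 26.2, and the satellite cell markers 1.28 to 1.67 and 1.08 to 1.60. The median difference was -0.22 for the fibroblast, -0.32 for the endothelial, -0.61 for the satellite cell, -0.27 for the motor neuron and 0.46 for the macrophage list. Medians were thus below 0 for all of these lists but macrophages, and the part of these cells in the differences of the 9 genes was not tested.

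The genes whose levels most resembled those of Musk and Prima1 over the 6 arrays were sought among 13834 genes with a symbol. For Musk, Pearson's r was 0.993 for each of Rpl5, Hspb8 and Seh1l, whose differences were 0.30, 1.67 and 0.60. For Prima1 it was 0.997 for Ppp4r1, 0.991 for Coq10b and 0.989 for Rbm24, whose differences were -0.41, -0.98 and -0.45. The 6 arrays share 1 slide and the genes were picked for their r, so these values are a description.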

How the data were processed

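RNA from the gastrocnemius of each mouse was labelled with Cy3 and hybridised to 1 Agilent array. The deposited intensities are linear: the authors' Feature Extraction software (version 11.0.1.1 per the file headers, 9.5 per the processing notes) subtracted background and removed trends within the array. Arrays were not scaled to each other. Flagged spots were left out (161 to 212 per array), log2 intensities were averaged over the spots of a probe, and each array was centred on its 75th percentile. Of 55681 probes, 28331 received a symbol from RefSeq (GRCm38.p6). Probes well above background on at least 3 of 6 arrays were kept, and the brightest kept probe stood for a gene. The age groups were compared in limma 3.58.1 (R 4.3.3; lmFit, eBayes), adjusted over all 20900 genes by Benjamini-Hochberg. SE comes from this fit, and for second probes from the same fit over all probes. The fit was run on simulated data first. The p-values cover the spread between mice, 1 sample of each.

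Bounds set a probe that was not well above background at the lowest signal that was, on each array, or at its own if higher. The 9 genes and all lists were chosen with earlier results of these arrays known. All 9 genes are named, and of each synapse list the up to 4 genes with the largest difference, plus Chrne. Alternatives were background correction, scaling, filter, probe choice, variance trend, slide row, replicate block, the deposited series matrix (identical values), saturated probes left out (there were none) and leaving out each mouse.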

Additional observations from a re-analysis of the deposited data

How the results depend on the processing

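Of the 18 alternatives, 12 change the difference of any of the 9 genes, and all 9 kept their direction in these. The filters, variance trend, replicate block, series matrix and saturation settings left the values of the 9 genes as they were. The count of the 9 genes past the threshold was 0 in place of 1 without a filter on dim probes, with the slide row as a block and with a replicate block, and ran from 0 to 1 with 1 mouse left out, being 1 only without aged mouse 1. Genes past the threshold numbered 53, but 8 of 36710 without the filter, 35 of 18551 when all 6 arrays had to be well above background, and from 1 (without aged mouse 3) to 199 (without aged mouse 1) with 1 mouse left out. That count was 9, 8 and 8 without young mice 1, 2 and 3, and 9 without aged mouse 2. With the slide row as a block the median of the 9 genes was -0.59 in place of -0.30, since only aged mouse 1 then sets the difference, and the endothelial list had a median of 0.03 in place of -0.32. The motor neuron and satellite cell medians were 0.02 and -0.02 when all 6 arrays had to be well above background. The median of the basal lamina and cytoskeleton list was 0.11 and 0.01 without aged mouse 1 and 2, and Chrna1 passed the threshold without aged mouse 1 (2.28). Scaling by the median moved the median of all genes to -0.21, and the differences of Etv5 and Rapsn to 0.04 and -0.37. The cause of these changes was not tested.

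The labels do not say that replicate numbers pair the mice. Deviations from the group means correlated at -0.06, -0.27 and 0.03 for same-numbered mice and at -0.21 to 0.35 for the others. With 3 mice per group these values cannot show whether the mice were paired. The replicate block left 5 genes past the threshold. With 3 mice per group an exact permutation test cannot give a p below 0.1.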
